A study of Mus musculus with 3 samples.

Results

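Keratins are the intermediate filament proteins of epithelia, and their genes were followed here through every cell cluster of 3 mouse single-cell RNA-seq libraries. A gene counted as a keratin if its symbol was Krt followed by a number and at most 1 letter, which kept 36 of the 28953 genes listed. Of these, 19 encode type I chains, 16 encode type II chains, and the 1 left over, *Krt222*, was given no type. The tail and culture tables list all 36 and the D6 table lists 22, and 32, 26 and 22 of them had at least 1 unique molecular identifier (UMI, the tag that marks each captured transcript). Only keratins with at least 50 UMIs in a cluster of a library are named with their levels unless stated otherwise, which admitted 15 keratins, 8 of type I and 7 of type II.

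The 3 libraries are 1 each of D6 PM, of the D10 culture and of the tail at E14.5. Mouse embryonic stem cells (mESCs) came from blastocysts carrying ScxGFP, a transgenic reporter that marks tendon progenitors, and were kept on MEF feeders. To obtain D6 PM, named for paraxial mesoderm, embryoid bodies received LDN-193189 (500 nM), which blocks BMP receptors, from day 0 to 6 and CHIR (5 μM), which activates WNT signaling, from day 2 to 6. For the D10 culture the cells were then grown as a monolayer from day 6 to 10 with TGFβ1 and FGF2 at 10 ng/mL each and with SAG, an agonist of hedgehog signaling, at 100 nM. The tail of E14.5 ScxGFP embryos is native tissue and received no agent. Which mESC line was used and how many embryos were pooled are not given in the sources used here. Each library was a 10x 3′ v3 preparation of live cells.

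Cells numbered 2052 in the tail, 7821 in the culture and 5954 in D6 PM, at median depths of 13512, 5622 and 8171 UMIs. Each deposited table gives a cluster code for each cell, as a number without a name. The tail and the culture share 1 set of codes. The authors took the tail as the reference, integrated both libraries and assigned culture cells to the tail's clusters, while the 6 codes of D6 PM come from a separate clustering and do not correspond to them. Levels are in CPM, the summed UMIs of a gene in the cells of a code, scaled to 1000000 UMIs of those cells. Cells of a library are not replicates of its condition, and no test was made. Ranges in parentheses are exact 95% intervals that cover counting error only, and where a group had no UMI of a gene, 3 counts in that group stood in for it and the ratio is a lower bound. Between 3 and 10 cell barcodes were shared by any pair of libraries. Among 5 genes of paraxial mesoderm, which were chosen after the data had been seen, *Meox1* was at 187 CPM, *Tcf15* at 113 CPM and *Foxc2* at 64.5 CPM in D6 code 4, while in D6 code 1 they were at 4.18, 29.1 and 0.275 CPM. *Tbx6* and *Dll1* did not exceed 3.56 and 10.9 CPM in any D6 code.

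A keratin filament is built from pairs of 1 type I and 1 type II chain, and epithelia differ in the pairs they make. *Krt8* (type II) and *Krt18* (type I) form the pair of simple epithelia such as endoderm and trophectoderm, where *Krt7*, *Krt19* and *Krt20* join them. *Krt5* and *Krt14* form the pair of the basal layer of stratified epithelia, with *Krt15* as a further type I chain of basal cells. Cells that leave the basal layer of the epidermis replace these with *Krt1* and *Krt10*, and the type II chain *Krt77* is also suprabasal. *Krt4* belongs to stratified internal epithelia, and *Krt6a*, *Krt16* and *Krt17* to skin appendages and to epidermis under stress. Desmosomes and hemidesmosomes anchor the filaments at the cell surface.

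*Krt8* and *Krt18* are the keratin genes that carry most of the culture results, and they lie on opposite strands of chromosome 15 with RefSeq starts 23874 bases apart. Their promoters, 250 bases before to 50 bases after the RefSeq start in GRCm38.p6, are shown because these genes move together across the clusters described next. The *Krt8* promoter lies at chr15:102004293-102004592 on the minus strand and that of *Krt18* at chr15:102027966-102028265 on the plus strand. Capitals mark TATAAA on both strands for *Krt8* and GCCNNNGGC for *Krt18*.
Krt8: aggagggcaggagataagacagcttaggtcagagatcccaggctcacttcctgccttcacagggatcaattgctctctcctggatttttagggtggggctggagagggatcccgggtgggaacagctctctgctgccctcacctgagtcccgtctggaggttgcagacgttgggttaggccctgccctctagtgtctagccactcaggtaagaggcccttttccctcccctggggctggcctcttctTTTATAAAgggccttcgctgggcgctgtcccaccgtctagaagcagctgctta
Krt18: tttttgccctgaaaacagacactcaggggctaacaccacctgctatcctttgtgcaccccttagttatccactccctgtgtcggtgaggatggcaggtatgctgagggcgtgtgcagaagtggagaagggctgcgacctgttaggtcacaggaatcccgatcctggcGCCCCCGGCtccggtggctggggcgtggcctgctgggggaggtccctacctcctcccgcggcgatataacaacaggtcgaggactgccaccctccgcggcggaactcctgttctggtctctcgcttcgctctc

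The capitals in *Krt8* begin 3 bases before the annotated start, and the match in *Krt18* begins at position -83. A search on both strands for TATAAA (the TATA box), TGACTCA (AP-1), GGGCGG (GC box) and GCCNNNGGC (AP-2) found these letters in 13.6%, 5.20%, 35.7% and 16.6% of 32851 RefSeq promoters of the same length. Of the 37 promoters of keratin genes in that table, members or not, 19 held TATAAA, 1 held TGACTCA, 2 held GGGCGG and 7 held GCCNNNGGC. A promoter could be matched for 23 of the 36 keratins. Matches of short letter strings are descriptions and not binding sites, and the genome build of the counts is not given in the sources used here.

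Keratin UMIs were concentrated in few cells, and the cells differed between libraries in which chains they held. Code 8 of the tail, 3.996% of its cells, held 60.5% of the 27039 keratin UMIs of that library, and code 3, 2.39% of the cells, held 26.5%. In the culture, code 8 was 1.98% of the cells and held 45.8% of 19215 keratin UMIs, and code 3 was 13.9% of the cells and held 20.2%. Culture code 3 also held 11727074 of the 53403944 UMIs of its library. Its share of keratin UMIs was thus below its share of all UMIs, and keratin was not concentrated in it. D6 PM differed in that its largest cluster, code 1 with 42.6% of the cells, held 69.1% of 110425 keratin UMIs, and code 3 held a further 23.2%. Summed keratin was at 9389 CPM in tail code 8, 5971 CPM in tail code 3, 8576 CPM in culture code 8, 4201 CPM in D6 code 1 and 3359 CPM in D6 code 3. Culture code 3 reached 330.4 CPM. Other codes lay above it in CPM, among them tail code 7 with 649 keratin UMIs and culture codes 7 and 13 with 1048 and 583. The lowest tail values were 23.3 CPM in code 11 and 19.8 CPM in code 12, a code of blood genes in which 6 haemoglobin and haem genes summed to 382242 CPM. In the heat map of levels by code, the tail codes 3 and 8 are dark in the rows of stratified keratins, and the keratin-rich codes of the culture and D6 PM in the rows of simple keratins.

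Among the simple epithelial keratins, *Krt8* and *Krt18* were the leading pair of the culture and of D6 PM. *Krt8* stood at 2914 CPM in culture code 8, 1209 CPM in D6 code 1, 1038 CPM in D6 code 3, 655 CPM in culture code 7 and 554 CPM in culture code 13. In the remaining D6 codes it lay between 31.2 and 95.2 CPM, in culture code 3 it was 41.9 CPM and in culture code 1 9.70 CPM. The order of these codes is that of the deposited libraries and has no replicate behind it. *Krt18*, its type I partner, followed with 3687 CPM in culture code 8, 2475 CPM in D6 code 1, 1869 CPM in D6 code 3, 1085 CPM in culture code 7 and 530 CPM in culture code 13. Tail levels were lower, with *Krt8* at 102.7 CPM and *Krt18* at 106.7 CPM in code 8. Tail code 7 held 251 CPM of *Krt8*, all from 2 of 86 cells. No *Krt8* UMI was found in the 49 cells of code 3, beside 8.34 CPM of *Krt18*. The floor of 3 counts allows up to 6.12% of cells with a UMI there, and the exact 95% interval up to 7.25%. Neither limits the share of cells that express the gene.

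Single cells of culture code 8 spread widely around these sums. *Krt8* per cell ran from 0 to 13179 CPM with a median of 2404 and an upper quartile of 3766 CPM over 155 cells, and *Krt18* from 0 to 36342 CPM with a median of 2543. In D6 code 1 the medians over 2539 cells were 873 CPM of *Krt8* and 2055 CPM of *Krt18*. Both genes therefore had a nonzero median in these codes, unlike in culture code 3, where the median of 1088 cells was 0 for *Krt8* and 71.9 CPM for *Krt18*, and the highest cell held 5966 CPM of *Krt18*. *Krt8* and *Krt18* levels rose together from cell to cell, with a Spearman rho of 0.73 over the 155 cells of culture code 8 and 0.67 over those of D6 code 1. These are descriptions of cells that share a library and a depth range.

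To compare shares of cells, 3000 UMIs were drawn at random from every cell, which left out 100 shallower cells of the tail, 1157 of the culture and 1006 of D6 PM. Both *Krt8* and *Krt18* were then found in 143 of 148 cells of culture code 8 (96.6%, 92.3 to 98.9), in 82.8% (81.1 to 84.4) of D6 code 1, in 80.5% of D6 code 3 and in 55.0% of culture code 13. In culture code 1, the largest and rich in tendon genes (4 genes summed to 6939 CPM), the share was 0.462%. For *Krt8* alone it was 0.963% there against 98.0% in code 8, or 1.42% and 98.7% before thinning, at median depths of 4918.5 and 6129 UMIs. Co-detection was 10.2% in culture code 6, 4.71% in culture code 5 and 3.15% in culture code 3. In the last of these, 311 of 1081 cells held *Krt18* without *Krt8* and 22 held *Krt8* without *Krt18*.

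The balance of the pair also differed between codes. *Krt18* exceeded *Krt8* by 1.27-fold (1.21 to 1.33) in culture code 8, and the sums were close to equal in culture code 13, at 0.956 (0.790 to 1.16), and tail code 8, at 1.04 (0.842 to 1.28). In D6 PM the ratio was 2.05 (2.01 to 2.08) in code 1 and between 1.80 and 2.46 in the other 5 codes. Culture code 3 stood at 5.15 (4.68 to 5.69), above every D6 code. Of the codes with a *Krt8* UMI, culture code 9 had the highest ratio, 22.3 (8.39 to 83.4), on 4 *Krt8* UMIs, and 78 of its 89 *Krt18* UMIs came from 6 of 53 cells. Multi-mapping reads were ignored in the counting, and how many of them fell on *Krt8* was not measured. The copy listed by the tables, *Krt8-ps*, held 1, 5 and 34 UMIs in the tail, the culture and D6 PM.

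**Figure D1:**
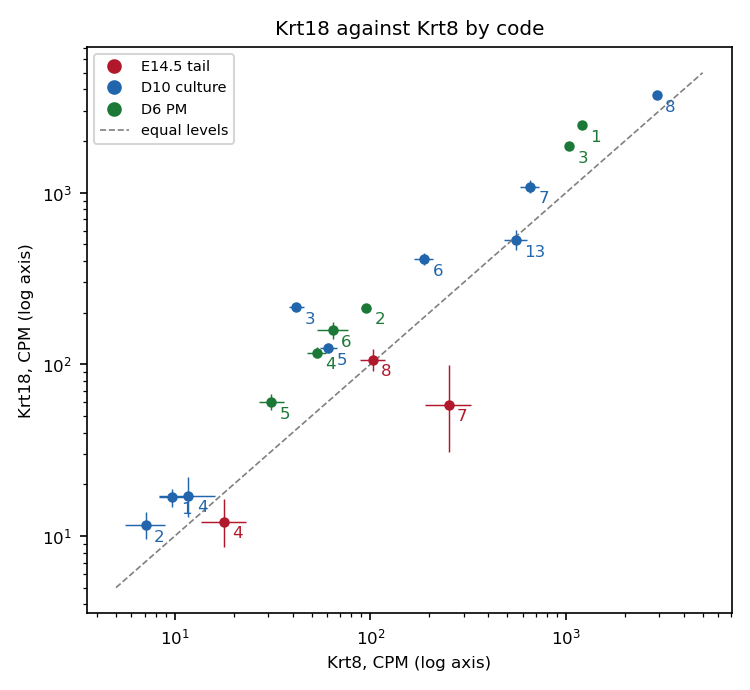
Summed Krt18 against summed Krt8 in CPM on logarithmic axes, 1 point for each code with at least 10 UMIs of each gene, colored by library, with the dashed line at equal levels. D6 codes keep a ratio between 1.80 and 2.46, culture code 3 lies far above the line at 5.15, and tail codes 4 and 7 lie below it at 0.678 and 0.232.

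*Krt19*, a type I chain without a tail domain, and *Krt7*, a type II chain of ducts and simple linings, had the same leading code in the culture. *Krt19* was at 1270 CPM in culture code 8, 311 CPM in codes 7 and 13 and 21.9 CPM in code 3, and per cell of code 8 the median was 1025 CPM. In D6 PM it lay at 274 CPM in code 1, 252 CPM in code 6 and 215 CPM in code 3, and between 12.8 and 73.4 CPM in codes 2, 4 and 5. D6 code 6 was thus as rich in *Krt19* as code 1 although its *Krt8*, at 64.4 CPM, was far lower. *Krt7* reached 545 CPM in culture code 8, 214 CPM in D6 code 1 and 211 CPM in D6 code 3. At 3000 UMIs, *Krt7* and *Krt19* were both found in 59.5% of the cells of culture code 8 and in 18.1% of those of D6 code 1. Taken singly, *Krt7* and *Krt19* were found in 68.2% and 85.8% of culture code 8, and in 37.4% and 36.2% of D6 code 1.

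*Krt20*, a type I chain of gut and urothelium, was found mainly in culture code 8, which held 51 of the 101 *Krt20* UMIs of the library, or 49.8 CPM. These came from 27 of 155 cells, and the per-cell median was 0. Its levels went with *Krt7* (Spearman rho 0.37 over 155 cells) more than with *Krt18* (rho -0.25).

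The basal keratins *Krt14*, *Krt5* and *Krt15* were abundant in tail codes 3 and 8. *Krt14* was at 2687 CPM in code 3 and 2446 CPM in code 8, *Krt15* at 1672 and 1935 CPM, and *Krt5* at 1143 and 1662 CPM. Tail code 7, with a median of only 1881 UMIs per cell, held 574 CPM of *Krt14*, 574 CPM of *Krt15* and 341 CPM of *Krt5*. Epidermal markers other than keratins were present with them, since all 6 of that list (*Trp63*, *Perp*, *Sfn*, *Tfap2b*, *Lgals7* and *Col17a1*) had at least 3 UMIs in codes 3 and 8, where they summed to 2428 and 4151 CPM.

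Within tail code 3 the basal keratins were found in nearly every cell, with per-cell medians of 2522 CPM for *Krt14*, 1659 CPM for *Krt15* and 1207 CPM for *Krt5*. In code 8 the medians were 2545, 1556 and 1327 CPM, and the highest cell held 9757 CPM of *Krt5*. At 3000 UMIs, *Krt5* and *Krt14* were both found in 89.8% of the cells of code 3 and 75.6% (64.9 to 84.4) of those of code 8, where independent detection would give 74.7%. In tail code 12, the blood code, 3.20% of cells had a *Krt14* UMI at that depth and 4.69% before thinning, at a median depth of 8391.5 UMIs against 20468 in code 8. Reads that map equally well to near-identical keratin genes, such as *Krt14*, *Krt16* and *Krt17* or *Krt5* and *Krt6a*, were ignored in the counting, so that levels within these groups are uncertain. The per-cell levels of *Krt14* went with those of *Krt5* (Spearman rho 0.50 over 49 cells of code 3 and 0.37 over 82 cells of code 8).

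Suprabasal keratins set code 8 of the tail apart from code 3 in level. *Krt1* was at 708 CPM in code 8 and 103 CPM in code 3, *Krt10* at 481 and 102 CPM, and *Krt77* at 49.3 CPM in code 8. These sums came from a minority of strongly marked cells. The median cell of code 8 held 48.5 CPM of *Krt1* and 76.6 CPM of *Krt10*, the upper decile began at 3688 and 1293 CPM, and the highest cells reached 6379 and 6455 CPM. At 3000 UMIs, 19.5% of code 8 cells had both, against 11.2% if detection were independent, and the Spearman rho of their levels was 0.65. *Krt10* and *Krt14* went in opposite directions, with a rho of -0.36. Tail code 7 also held 498 CPM of *Krt1* and 314 CPM of *Krt10*. *Krt2*, a late suprabasal type II chain below the rule for naming, had 12 UMIs in 9 cells of code 8.

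In the tail, *Krt10* was also found widely outside these codes. In the 10 tail codes outside 3, 7 and 8 it ranged from 1.88 CPM in the blood code 12 to 55.1 CPM, and code 1, the largest with 685 cells, held 51.3 CPM from 353 cells with a per-cell median of 35.5 CPM. At 3000 UMIs 14.45% (11.9 to 17.3) of code 1 cells had a *Krt10* UMI and 51.5% did before thinning, while 0 of 125 cells of code 12 did, where the same floor allows up to 2.40% of cells with a UMI, and 1.56% did before thinning. The median depths were 13463 UMIs in code 1 and 8391.5 UMIs in code 12. *Krt1*, its filament partner, was found there at lower levels, with 63 UMIs or 6.22 CPM in code 1. *Krt10* UMIs outnumbered those of *Krt1* by 8.24-fold (6.33 to 10.9) in tail code 1, 15.8-fold (8.62 to 32.3) in code 2 and 13.5-fold (7.30 to 27.5) in code 4, whereas the ratio was 0.679 (0.622 to 0.742) in code 8 and 0.992 (0.766 to 1.28) in code 3. In the culture *Krt10* lay between 3.03 and 26.1 CPM over the 11 codes with at least 30 cells and in D6 PM between 12.04 and 26.7 CPM. The whole culture held 35 *Krt1* UMIs.

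Nearly all *Krt4* and *Krt19* UMIs of tail code 8 lay in a small set of its cells. *Krt4* was at 406 CPM in code 8, but 705 of its 708 UMIs lay in 7 of the 82 cells, chosen here, after their values were seen, as those with at least 3 *Krt4* UMIs. The same 7 cells held 1356 of 1406 *Krt19* UMIs of the code, 127 of 179 of *Krt8*, 120 of 186 of *Krt18*, 142 of 247 of *Krt7* and 527 of 870 of *Krt17*, of which 424 came from 1 cell. Their level of *Krt19* was 8467 CPM, of *Krt4* 4402 CPM, of *Krt5* 4246 CPM and of *Krt15* 1611 CPM, while *Krt14* was at 87.4 CPM. Of the 258 *Krt15* UMIs of the 7 cells, 240 came from 1 cell. In the 73 cells without a *Krt4* UMI, *Krt14* was at 2741 CPM, *Krt5* at 1424 CPM, *Krt19* at 29.7 CPM, *Krt8* at 33.5 CPM and *Krt18* at 41.9 CPM. Median depths were 20494 UMIs in the 7 cells and 20468 UMIs in the 73. The other 2 cells had 1 or 2 *Krt4* UMIs and held 4979 CPM of *Krt10*, 3591 CPM of *Krt1* and 30.2 CPM of *Krt14*.

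Other genes of the fixed lists also differed in these 7 cells, as a description of cells chosen by a keratin. The plakin genes *Ppl* and *Evpl*, which bind keratin to the cornified envelope, were at 1318 and 325 CPM against 159 and 46.1 CPM in the other 75 cells, and both were found in all 7. *Trp63*, the transcription factor of basal cells, was at 43.7 against 338 CPM, and *Krtdap*, a gene of differentiating epidermis, at 6.24 against 1409 CPM. *Col17a1*, a hemidesmosome collagen, had 0 UMIs in the 7 cells and stood at 126 CPM in the others. Across the 82 cells the rho was 0.67 between *Krt4* and *Krt19*, 0.60 between *Krt8* and *Krt18* and -0.48 between *Krt4* and *Krt14*. In the plot of cells by *Krt4* class, the 7 cells stand at the top for *Krt4* and *Krt19* and near the bottom for *Krt14*.

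**Figure D2:**
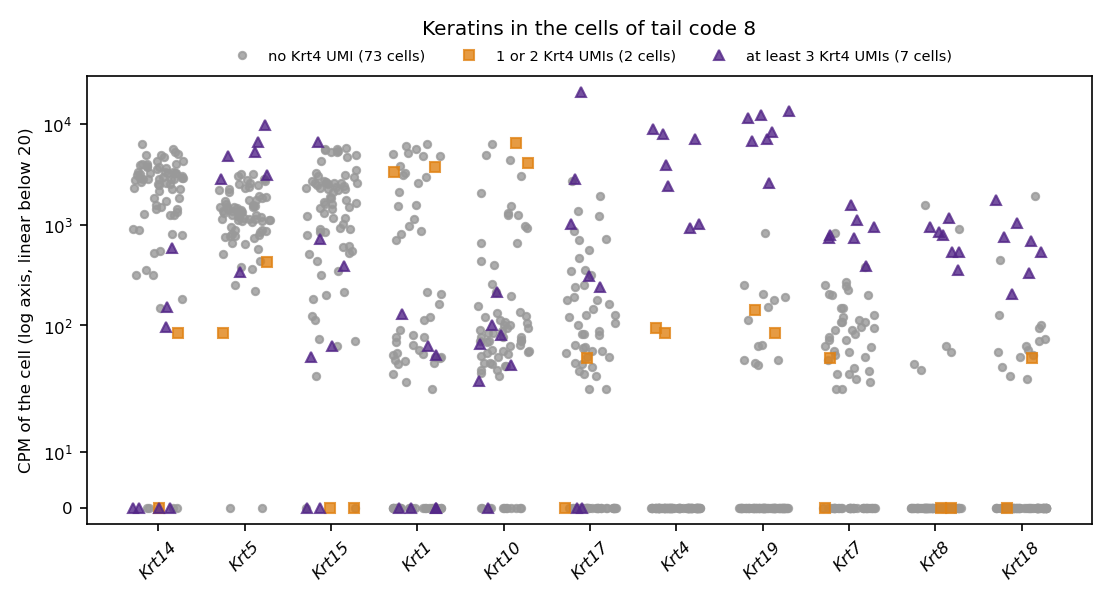
Level of 11 keratins in each of the 82 cells of tail code 8 in CPM, 1 point per cell, on an axis that is linear below 20 CPM and logarithmic above it, with cells colored by their Krt4 UMIs (73 cells with none, 2 with 1 or 2, and 7 with at least 3). The 7 cells sum to 8467 CPM of Krt19 and 87.4 CPM of Krt14, and the 73 to 29.7 and 2741 CPM.

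Type I chains outnumbered type II chains in all 30 codes with at least 30 cells. In tail code 8 type I keratins summed to 6292 CPM and type II to 3097 CPM, a ratio of type II over type I of 0.492 (0.476 to 0.509). It was 0.279 (0.264 to 0.295) in tail code 3, where *Krt14* was the leading keratin, and 0.682 (0.653 to 0.712) in culture code 8, the highest of the 30. D6 code 1 stood at 0.516 (0.508 to 0.524) and D6 code 3 at 0.596. Culture code 3 was at 0.224 (0.206 to 0.243), with *Krt18* as 65.3% of its keratin UMIs. A UMI counts a transcript and not a chain of protein, and the 22 keratins of the D6 table lack *Krt5* and *Krt14*, so that the D6 sums rest on fewer genes.

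**Figure D3:**
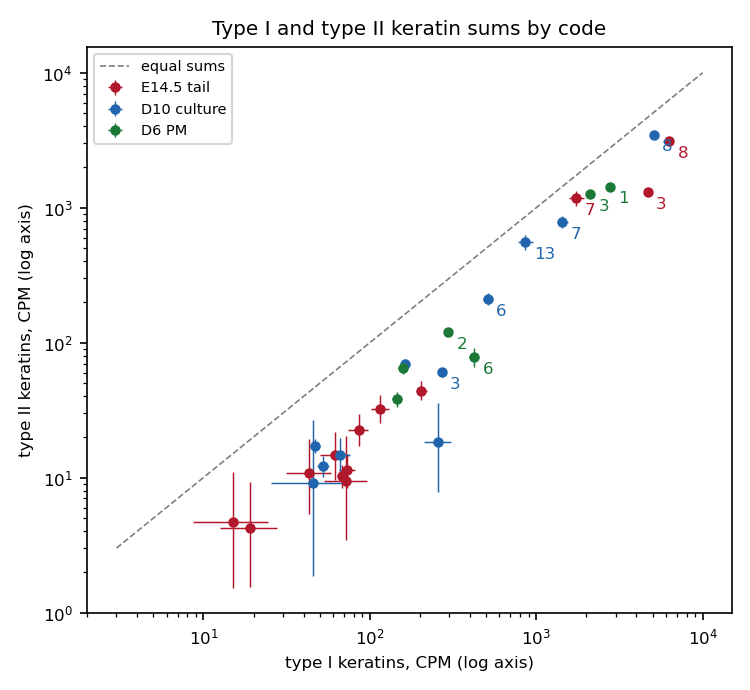
Summed type II against summed type I keratin in CPM on logarithmic axes, 1 point per cluster code colored by library, with the dashed line at equal sums and codes above 300 CPM numbered. Codes with at least 30 cells lie below the line, from 0.0708 in culture code 9 to 0.682 in culture code 8.

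The shared codes allow the culture to be set beside the tail, the native tissue it was compared with, and for code 8 the keratins of the 2 libraries fell into opposite sets. *Krt8* was 28.4-fold (24.4 to 33.2) and *Krt18* 34.6-fold (29.8 to 40.3) higher in the culture, *Krt7* 3.85-fold (3.31 to 4.49), and *Krt20*, at 0 UMIs in the tail code, at least 28.9-fold. *Krt19* was 1.57-fold (1.46 to 1.70) higher. In the other direction, the tail exceeded the culture 627-fold (245 to 2302) for *Krt14*, which had 4 UMIs in the culture, all in 1 cell, 104-fold (66.8 to 174) for *Krt15*, 19.0-fold (12.9 to 29.2) for *Krt10*, 121-fold (55.4 to 330.4) for *Krt1*, 83.3-fold (35.5 to 257) for *Krt4* and 12.2-fold (8.94 to 17.02) for *Krt17*. *Krt5* and *Krt77*, without a UMI in the 155 culture cells, were at least 568-fold and at least 16.9-fold higher in the tail. Median depths were 6129 UMIs in the culture cells of code 8 and 20468 in the tail cells.

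By a fixed rule, a CPM ratio of at least 2 among genes detected in 10% or more of the cells on either side, 15 of the 36 keratins passed on detection, and 4 of them were higher and 10 lower in the culture. The 10 lower ones include *Krt2* and *Krt16*, at 12 and 22 UMIs in the tail, which are below the rule for naming. Over all 10991 genes that passed, 14% were higher and 17.3% lower in the culture. A keratin that passed only through the library where it is high had to differ. Only *Krt10*, *Krt19*, *Krt7*, *Krt8* and *Krt18* passed through both libraries. *Krt20* passed only through the culture, and all others only through the tail. The median log2 ratio of culture over tail was -3.77 for the 15 keratins and -0.08 for all genes, both from log2(CPM + 1), and -3.61 for the keratins with counts of 0 set to 3 and no pseudocount. These medians include the keratins that had to differ.

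The ratios of the simple keratins depend on the 7 *Krt4* cells of the tail. Without them, in an alternative chosen after the data were seen, tail code 8 held 32.8 CPM of *Krt8*, 41.7 CPM of *Krt18* and 31.6 CPM of *Krt19*, and the culture was 88.7-fold (67.5 to 119), 88.5-fold (69.4 to 115) and 40.2-fold (30.3 to 54.5) higher. *Krt7* was then 8.22-fold (6.66 to 10.2) higher. *Krt19* then passed the 2-fold rule, giving 5 keratins higher and 9 lower in the culture of 14, against 14.6% and 17.8% of 11048 genes in that setting. Keratins that passed through 1 library only had to differ in that setting as well. For *Krt17* the tail excess fell to 5.29-fold, and the 42 *Krt17* UMIs of culture code 8 came from 4 cells. For *Krt4* the direction turned, with 5 UMIs in the culture and 3 in the tail and a ratio of culture over tail of 2.57 (0.501 to 16.6).

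**Figure D4:**
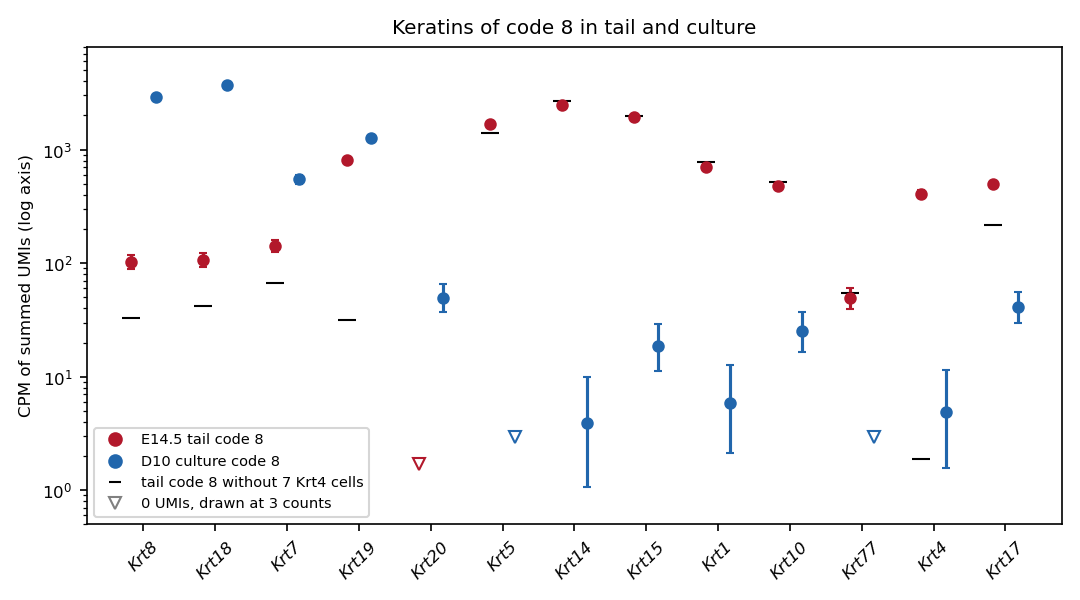
Level of each keratin in the 82 tail cells and the 155 culture cells of code 8 in CPM on a logarithmic axis, with exact 95% Poisson intervals for counting error, open triangles for 0 UMIs drawn at 3 counts, and a black dash for the tail without its 7 Krt4 cells. Krt8 and Krt18 stand above 2900 CPM in the culture and near 100 CPM in the tail, and Krt14, Krt15 and Krt5 above 1600 CPM in the tail and under 19 CPM in the culture.

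Genes that work with keratins differed between the same cells. Of the 13 desmosome and hemidesmosome genes, all of which passed on detection, 1 was higher in culture code 8 and 8 were lower, beside the 14% higher and 17.3% lower among all genes that passed, which apply to the lists that follow as well. *Pkp2*, a plakophilin of simple epithelia and heart, was at 74.1 CPM in the culture and 5.16 CPM in the tail, and the epidermal plakophilin *Pkp1* at 0 and 116 CPM. *Dsp*, which links keratin to desmosomes, was at 292 and 736 CPM, *Perp* at 484 and 1635 CPM, and *Col17a1* at 0 and 115 CPM. *Pkp1* and *Col17a1*, without a UMI in the culture cells, passed only through the tail and had to be lower. *Dst*, *Plec*, *Itgb4* and *Itga6*, the core of hemidesmosomes, were within 2-fold. Of 10 genes of the cornified envelope and late epidermis, 5 passed and all of them were lower in the culture, among them *Krtdap* at 0 and 1280 CPM. None of the 10 reached 10% of the cells of culture code 8. These 5 thus passed only through the tail, with the limit given above for such keratins. Of 12 epithelial transcription factors, 11 passed, none was higher and 10 were lower in the culture, with *Trp63* at 6.83 and 311 CPM and *Klf5* at 142 and 341 CPM. No more than 5 of the 12 reached 10% of the cells of culture code 8, and the rest that passed did so only through the tail. Of the 4 other intermediate filaments that passed, 2 were higher in the culture and none lower, and *Vim*, the filament of mesenchyme, was at 1112 CPM in the culture and 201 CPM in the tail.

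Marker lists that hold no keratin separated the 2 sets of code 8 cells. *Epcam*, an adhesion gene of epithelia, was at 593 CPM in the tail cells and 1563 CPM in the culture cells. It is 1 of 8 genes of the surface epithelium list, of which 3 were at least 2-fold higher and 3 lower in the culture. The endoderm list had 9 of 12 genes with at least 3 UMIs in culture code 8, summed to 3815 CPM, and 2 of 12 at 12.05 CPM in tail code 8. *Rbp4* was at 1844 CPM, *Afp* at 1193 CPM and *Ttr* at 447 CPM in those culture cells. The epidermal list had 3 of 6 genes at 872 CPM in the culture cells. Blood genes were at 1558 CPM in tail code 8 and 8.78 CPM in culture code 8, and 1453 of the 1493 *Hbb-bt* UMIs of tail code 8 lay in 1 of the 7 *Krt4* cells. The part of these cells' other differences in the keratin ratios was not tested.

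Code 3 showed a like split at much lower levels in the culture, except that *Krt7* was here higher in the tail. *Krt18* was 25.9-fold (14.1 to 54.1) higher in culture code 3 than in tail code 3, *Krt19* 2.39-fold (1.31 to 4.85), and *Krt8*, without a UMI in the tail code, at least 16.7-fold. The tail exceeded the culture at least 10503-fold for *Krt14* and at least 4468-fold for *Krt5*, neither of which had a UMI in 1088 culture cells, 172-fold for *Krt1*, 46.2-fold for *Krt17* (16.2-fold without the tail cell that held 147 of its 222 UMIs), 7.41-fold for *Krt10* and 2.77-fold for *Krt7*. For *Krt15* the culture code held 3 UMIs and the tail was 6537-fold (2234 to 31727) higher. By the fixed rule 11 keratins passed, 3 of them higher in the culture and 8 lower, against 16.9% and 23.3% of 11509 genes. Here too a keratin that passed through 1 library only had to differ. *Krt8* passed only through the culture. *Krt14*, *Krt5*, *Krt15*, *Krt1*, *Krt17* and *Krt16*, the last below the rule for naming, passed only through the tail. Only *Krt10*, *Krt18*, *Krt19* and *Krt7* passed through both libraries. The median log2 ratio of CPM + 1 was -2.80 for the keratins and -0.11 for all genes, and -4.61 for the keratins with counts of 0 set to 3 and no pseudocount. All 6 pluripotency markers were detected in culture code 3 and summed to 5933 CPM, *Dppa5a* alone reaching 4021 CPM, and the epidermal list summed to 63.3 CPM. Both codes 3 and 8 thus joined tail cells rich in *Krt14* with culture cells that held no more than 4 UMIs of it.

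Between the keratin codes of the tail itself, code 8 exceeded code 3 in suprabasal chains with and without its 7 *Krt4* cells, while the size of its excess in *Krt4*, *Krt8*, *Krt19*, *Krt18*, *Krt7* and *Krt17* rested on those cells. Over code 3, *Krt19* was 87.9-fold (49.0 to 177) higher, *Krt18* 12.8-fold, *Krt77* 8.45-fold, *Krt1* 6.91-fold (5.74 to 8.38), *Krt10* 4.73-fold (3.91 to 5.77), *Krt7* 2.93-fold and *Krt17* 2.70-fold. *Krt5* stood at 1.45-fold, *Krt15* at 1.16-fold and *Krt14* at 0.910-fold (0.869 to 0.953). *Krt4* and *Krt8*, without a UMI in code 3, were at least 162-fold and at least 41.1-fold higher. Of 14 keratins that passed, 11 were at least 2-fold higher in code 8 and none lower, against 7.94% and 5.3% of 11349 genes. A keratin that passed only through code 8, as *Krt4*, *Krt8*, *Krt77* and *Krt2* did, had to be higher there. Without the 7 *Krt4* cells, *Krt19* was 3.44-fold (1.77 to 7.34), *Krt18* 5.0-fold (2.56 to 10.9), *Krt7* 1.37-fold (0.986 to 1.92), *Krt17* 1.17-fold (0.986 to 1.39), *Krt1* 7.58-fold (6.29 to 9.19), *Krt10* 5.13-fold (4.24 to 6.26), *Krt5* 1.23-fold and *Krt14* 0.999-fold (0.954 to 1.05) of code 3. In that setting, chosen after the data were seen, 7 of the 12 keratins that passed were higher and none lower, against 7.23% and 5.17% of 11352 genes. *Krt77* and *Krt2* again passed only through code 8. *Krt4*, with 3 UMIs, and *Krt8*, with 52, then fell short of the 10% of cells that the rule asks for. The level of *Krt8* was then still at least 13.1-fold higher in code 8. These are descriptions, as the codes were made from the same genes. A single cell held 147 of the 222 *Krt17* UMIs of code 3, and without it *Krt17* was 7.67-fold (6.05 to 9.84) higher in code 8, or 3.33-fold (2.59 to 4.33) with the 7 *Krt4* cells left out too. All 5 cornified genes that passed were higher in code 8, as were 3 of 12 desmosome genes, and none of either list was lower. Of the cornified genes, *Lor* and *Sbsn* passed only through code 8.

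In D6 PM the keratin-rich cells were not a small cluster but codes 1 and 3, with 2539 and 821 of the 5954 cells. *Krt8* was 4.19-fold (4.10 to 4.30) and *Krt18* 4.57-fold higher in code 1 than in the other 5 codes together, *Krt7* 3.54-fold and *Krt19* 2.75-fold, while *Krt10* stood at 1.14-fold. Of 5 keratins that passed, 4 were higher and none lower, against 4.43% and 9.49% of 9043 genes. Because code 3 shares the simple keratins, the ratios rose when it was left out, a choice made after the data were seen, to 17.6-fold (16.8 to 18.5) for *Krt8*, 16.2-fold for *Krt18*, 13.3-fold for *Krt7* and 4.17-fold for *Krt19*, against 6.43% of 9224 genes that were higher and 12.3% that were lower. With code 3 left out, *Krt7* passed only through code 1 and so had to be higher there. The D6 codes were made from the same genes, so these ratios are descriptions. Between codes 1 and 3 no keratin passed 2-fold, and nor did most genes, with 0.214% of 8422 higher and 3.65% lower in code 1. *Krt8* was 1.17-fold, *Krt18* 1.32-fold and *Krt7* 1.01-fold (0.955 to 1.07) of its level in code 3. Most endoderm markers went with the keratins. The list of 12 summed to 1144 CPM in code 1, 988 CPM in code 3 and 67.2 CPM in code 2. All 12 had at least 3 UMIs in code 1 and 11 had in code 3, and *Sox17* was at 519 CPM in code 1. *Cubn*, with 3 UMIs in code 1, and *Amn* went the other way. They stood at 0.205-fold (0.0391 to 0.686) and 0.551-fold (0.362 to 0.823) of codes 2, 4, 5 and 6. The D6 cells with the highest *Meox1*, code 4, held 53.1 CPM of *Krt8* and 117 CPM of *Krt18*.

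D6 PM precedes the culture by 4 days, and its keratin clusters can be set beside those of the culture, although the codes were made separately and no cell was followed from one to the other. Culture code 8 exceeded D6 code 1 by 181-fold (72.6 to 581) for *Krt20*, 4.64-fold for *Krt19*, 2.55-fold for *Krt7* and 2.41-fold for *Krt8*, while *Krt18* was 1.49-fold and *Krt10* 1.28-fold. Of 6 keratins that passed, 4 were higher and none lower, against 12.6% and 5.93% of 8485 genes. *Krt20*, found in 5 of 2539 cells of D6 code 1, passed only through the culture code and so had to be higher there. Desmosome genes differed in the same direction, 9 of 10 that passed being higher in the culture code and none lower. Culture code 3 and D6 code 2, both rich in pluripotency genes at 5933 and 8130 CPM, held the same level of *Krt18*, at a ratio of 1.01 (0.953 to 1.06). *Krt8* was at 0.440 and *Krt19* at 0.368 of the D6 level, so that 2 of 5 keratins that passed were lower and none higher, against 3% and 4.14% of 9179 genes.

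Across all codes with at least 30 cells, the genes most like a keratin in log2(CPM + 1) were often other keratins. For *Krt8* the 5 highest Pearson correlations over 30 codes and 8694 genes were *Krt18* (0.93), *Krt19* (0.88), *Prss8* (0.83), *Foxa2* (0.82) and *Cldn7* (0.82). For *Krt14*, over the 24 codes of the tail and the culture and 8558 genes, they were *Krt5* (0.99), *Krt15* (0.95), *Trp63* (0.93), *Col17a1* (0.93) and *Gjb2* (0.93). *Krt10* was followed by *Anapc13* (0.86), *Krt1* (0.85), *Nebl* (0.84), *Kctd1* (0.83) and *Bcl11b* (0.82) over 30 codes. Codes of a library share its depth and preparation, and these values carry no test.

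The remaining keratins were rare. *Krt42*, a type I chain, reached 8.27 CPM in culture code 3, from 97 UMIs in 78 of 1088 cells, and 31 UMIs in D6 code 2. *Krt90* reached 3.19 CPM in D6 code 1, from 58 UMIs in 56 of 2539 cells. The other 21 keratins stayed below 50 UMIs in every code. In the tail the highest of them was *Krt24*, named here after its value was seen, with 39 UMIs in 18 of the 121 cells of code 5. Without any UMI were 4 of the 36 in the tail and 10 in the culture.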

How the data were processed

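Single-cell RNA-seq of the E14.5 tail, D10 culture and D6 PM was analysed, 1 library each. The deposited values are raw UMI counts for each cell, which the authors made with cellranger 3.1.0 with multi-mapping reads ignored. Cells above 7.5% mitochondrial transcripts and the top and bottom 2% of cells had been removed. The authors clustered cells with Seurat 3.0 and deposited the codes, which were used unchanged. The genome reference is not given in the sources used here. Promoters came from RefSeq (GRCm38.p6).

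UMIs were summed per code and library with Python 3.11.15, NumPy 2.4.6, SciPy 1.17.1 and pandas 2.3.3, and figures drawn with Matplotlib 3.10.9. Levels have Poisson intervals, ratios conditional binomial intervals and shares Clopper-Pearson intervals. Scrublet in Scanpy 1.11.5, at an expected rate of 6%, called 9 tail cells (0.439%), 116 culture cells (1.48%) and 81 D6 cells (1.36%) as doublets, which were left out only as an alternative. In code 8 these were 0 tail and 2 culture cells. Cells were thinned to 3000 UMIs with seed 1. Alternatives varied the thinning depth, the doublets, the detection filter, the fold, the mean over cells, the top cell and the 7 *Krt4* cells.

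Keratins with at least 50 UMIs in a code were named. For *Krt8*, *Krt14* and *Krt10* the 5 most correlated genes with at least 50 CPM in a code were named too. The keratins and gene lists were chosen with earlier results of these data known. The 14 keratins that the D6 table does not list were not analysed there.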

Additional observations from a re-analysis of the deposited data

Results flagged for a closer look

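Some keratins went one way in the tail and the other in the culture under the same contrast of codes. With 1 library of each, none of these differences was tested.

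*Krt14* in code 8 over code 3 was 0.910-fold (0.869 to 0.953) in the tail, from 4264 and 3223 UMIs, and at least 15.3-fold in the culture, from 4 and 0 UMIs. All 4 lay in 1 of the 155 culture cells, and without that cell neither culture code has a *Krt14* UMI. Without the 7 *Krt4* cells, a setting chosen after the data were seen, the tail ratio of *Krt14* was 0.999 (0.954 to 1.05). *Krt10* in code 3 over all other codes was 1.45-fold (1.20 to 1.75) in the tail and 0.649-fold (0.546 to 0.769) in the culture. *Krt15* in code 3 over all other codes was 13.1-fold (12.5 to 13.9) in the tail and 0.132-fold (0.0266 to 0.399) in the culture, where code 3 held 3 of its UMIs and the other codes 81. *Krt7* in the same contrast was 5.56-fold (4.11 to 7.42) in the tail and 0.856-fold (0.731 to 0.998) in the culture.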

How the results depend on the processing

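No paired analysis was possible because each condition has 1 library. Of 84 values of 18 results under other settings, 62 stayed within their interval or within 1.5 times the count, and none of these 84 changed direction. In code 8 of the culture against code 8 of the tail, the 10 keratins at least 2-fold higher in the tail ranged from 9 to 15 and the 4 higher in the culture from 3 to 5. Of all genes that passed, 14% were higher in the culture and 17.3% in the tail in the main setting. Without the 7 *Krt4* cells these shares were 14.6% and 17.8%. They are not given here for the other settings, so the ranges describe the settings only. Culture over tail in code 8 was 35.6-fold for *Krt8* and 41.0-fold for *Krt18* without the cell with most UMIs of the gene, and 88.7-fold and 88.5-fold without the 7 *Krt4* cells, a setting chosen after the data were seen. Without those cells the keratins at least 2-fold higher in tail code 8 than in tail code 3 fell from 11 to 7, and *Krt4* turned to 2.57-fold (0.501 to 16.6) higher in culture code 8. The ratio of type II over type I in tail code 8 was 0.532 as a mean over cells, 0.471 without the top cell and 0.429 without the 7 *Krt4* cells. In culture code 8 it was 0.641 as a mean over cells, and in culture code 3 0.185 as a mean over cells and 0.204 without the top cell. Without the cell of tail code 3 with most *Krt17* UMIs, likewise left out after the data were seen, *Krt17* was 7.67-fold higher in tail code 8 than in tail code 3 and 16.2-fold higher in tail code 3 than in culture code 3. The share of culture code 8 cells with *Krt8* and *Krt18* was 90.2% at 2000 UMIs and 99.1% at 5000 UMIs. In D6 code 1 it was 73.4% at 2000 UMIs, 91.0% at 5000 UMIs and 88.3% without thinning. The share of tail code 8 cells with *Krt5* and *Krt14* was 86.6% without thinning. *Krt8* in D6 code 1 over the other codes was 4.32-fold without called doublets, 4.03-fold as a mean over cells and 17.6-fold against codes 2, 4, 5 and 6 only, the last chosen after the data were seen. The shares of cells with both keratins rise with the number of UMIs kept, and a keratin without a UMI in a code is below 3 counts there, not absent.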

Other observations

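A few cells carried most of the *Krt8* UMIs in tail codes 4 and 7. In tail code 4, which holds cartilage genes, 3 of 241 cells, chosen as those with at least 3 *Krt8* UMIs, held 54 of the 59 *Krt8* UMIs, 26 of the 40 *Krt18* UMIs and 43 of the 70 *Krt19* UMIs, the latter pair in 2 of the 3 cells. All 133 UMIs of *Shh* also lay in 2 of the 3, a gene of notochord and floor plate that was looked at after these cells were found. Of the 155 *Krt17* UMIs of that code, 133 lay in the 19 cells with at least 3 of them, and 8 in the 3 *Krt8* cells. In tail code 7, 2 of 86 cells held all 56 *Krt8* UMIs and all 34 *Krt19* UMIs and none of the 128 *Krt14* UMIs. In the 7 *Krt4* cells of tail code 8, 31 UMIs of *Upk3b*, a uroplakin chosen after the values were seen, lay in 5 cells, and the other 75 cells of that code had 0.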
